A study of Mus musculus with 6 samples.

Results

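CTBP2 binding sites at gene starts on mouse chromosomes 10 and 11 are described here, set against the other CTBP2 sites of the same chromosomes. A site was taken as a gene start site when its centre lay within 1 kb of the start of a gene named in the deposited table, after each gene start had been moved towards the chromosome's start by 164.2 kb on chromosome 10 or 109.2 kb on chromosome 11. The rule used positions only and no measured value. It took 744 of the 8330 sites on these chromosomes (8.93%), 249 of 3591 on chromosome 10 and 495 of 4739 on chromosome 11. The other 7586 sites formed the comparison set, and the whole table held 62236 sites. The sites came from CTBP2 chromatin immunoprecipitation and sequencing (ChIP-seq) in bone marrow-derived macrophages, grown in culture from marrow of wild-type male C57BL6/N mice of 6 to 12 weeks with L929-conditioned medium. The 3 vehicle libraries came from cells given PBS, and the 3 LPS libraries from cells given lipopolysaccharide, a bacterial cell wall component, at 100 ng/ml for 3 h. All 6 libraries shared the same antibody and fixation with DSG and formaldehyde. The labels number the libraries without naming animals or cultures, so p-values measure only how these libraries vary, and that variation may be technical. No input or control immunoprecipitation was used here.

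C-terminal binding proteins are co-repressors that do not bind DNA themselves. They are carried to chromatin by DNA-bound transcription factors and bring along histone deacetylases and demethylases, and their assembly depends on NADH. In macrophages, co-repressors sit at promoters and enhancers of inflammatory genes, and LPS acts on those genes through NF-kB, AP-1 and interferon regulatory factors. A promoter is the stretch around a gene start where RNA polymerase is loaded. Many promoters are rich in G, C and CpG dinucleotides and hold GC boxes, while others hold a TATA box.

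The promoter sequences below show the letters around the starts on which the results turn. They are the 250 bases before the start in RefSeq's table for GRCm38.p6, matched by gene symbol, each written 5′ to 3′ on the gene's own strand. Capitals mark matches, on either strand, to NF-kB (GGNNTTTCC), AP-1 (TGANTCA), PU.1 (GAGGAAGT), the interferon element ISRE (GAAANNGAA), the ZEB E-box (CACCTG), the GC box (GGGCGG), the TATA box (TATAAA) and the CCAAT box (CCAAT), with N for any base. A match describes the letters and is no measured binding site. Only these letters were searched, so other forms of a motif go unmarked and uncounted, and a promoter without capitals may still hold them. The first 4 belong to genes whose start sites rose in LPS: Socs3 at chr11:117969367-117969616, Efna2 at chr10:80179232-80179481, Tnip1 at chr11:54962941-54963190 and Rsad1 at chr11:94549208-94549457. All 250 bases of Socs3 lie inside the site that rose, and 0 of those of Efna2, Tnip1 and Rsad1 do.
Socs3: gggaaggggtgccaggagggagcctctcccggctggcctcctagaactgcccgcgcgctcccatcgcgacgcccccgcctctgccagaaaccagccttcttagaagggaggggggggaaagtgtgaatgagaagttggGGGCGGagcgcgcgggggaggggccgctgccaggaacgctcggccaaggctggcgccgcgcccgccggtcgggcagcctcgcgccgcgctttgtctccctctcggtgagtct
Efna2: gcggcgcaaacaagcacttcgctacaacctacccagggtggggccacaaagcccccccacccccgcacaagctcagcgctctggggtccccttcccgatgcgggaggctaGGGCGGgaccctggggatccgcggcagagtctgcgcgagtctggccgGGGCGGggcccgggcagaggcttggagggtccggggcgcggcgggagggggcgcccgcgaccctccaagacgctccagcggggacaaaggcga
Tnip1: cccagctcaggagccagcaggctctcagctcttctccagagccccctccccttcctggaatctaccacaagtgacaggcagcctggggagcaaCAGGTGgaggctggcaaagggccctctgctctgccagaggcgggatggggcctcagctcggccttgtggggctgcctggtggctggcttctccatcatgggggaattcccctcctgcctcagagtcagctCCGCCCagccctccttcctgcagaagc
Rsad1: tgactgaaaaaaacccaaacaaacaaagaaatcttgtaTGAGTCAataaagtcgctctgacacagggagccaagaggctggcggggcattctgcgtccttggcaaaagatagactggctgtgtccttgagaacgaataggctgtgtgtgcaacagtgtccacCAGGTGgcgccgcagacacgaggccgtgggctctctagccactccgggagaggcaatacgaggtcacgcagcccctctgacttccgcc

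Next come 2 genes among the start sites with the lowest folds, Igf1 at chr10:87860861-87861110 and Hmga2 at chr10:120476470-120476719. Neither passed the test on the deposited values. The RefSeq start of Igf1 lies 2846 bp from the start in the deposited table, so its printed bases lie outside the site, whereas all 250 bases of Hmga2 lie within it.
Igf1: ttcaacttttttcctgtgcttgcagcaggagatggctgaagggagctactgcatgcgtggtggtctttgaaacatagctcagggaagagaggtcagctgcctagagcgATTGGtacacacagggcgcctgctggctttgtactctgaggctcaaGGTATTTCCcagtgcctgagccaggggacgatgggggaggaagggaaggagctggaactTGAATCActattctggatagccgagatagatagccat
Hmga2: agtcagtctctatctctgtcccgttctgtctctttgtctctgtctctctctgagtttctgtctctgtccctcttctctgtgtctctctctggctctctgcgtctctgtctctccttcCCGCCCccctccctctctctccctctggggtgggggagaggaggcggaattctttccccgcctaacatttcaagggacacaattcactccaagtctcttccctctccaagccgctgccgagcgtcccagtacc

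The promoters of Polr2a at chr11:69758634-69758883 and Pik3r5 at chr11:68431875-68432124 belong to the first 2 start sites by mean value over the 6 libraries, an order that changes with the libraries used, as given below. All 250 bases of both lie inside the site. Polr2a holds 3 GC boxes and a TATA box, and Pik3r5 holds 4 GC boxes.
Polr2a: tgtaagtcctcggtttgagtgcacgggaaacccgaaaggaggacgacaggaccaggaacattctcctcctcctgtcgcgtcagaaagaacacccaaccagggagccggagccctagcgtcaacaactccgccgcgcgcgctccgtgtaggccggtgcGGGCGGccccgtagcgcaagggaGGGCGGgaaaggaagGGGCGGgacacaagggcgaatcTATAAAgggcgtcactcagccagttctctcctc
Pik3r5: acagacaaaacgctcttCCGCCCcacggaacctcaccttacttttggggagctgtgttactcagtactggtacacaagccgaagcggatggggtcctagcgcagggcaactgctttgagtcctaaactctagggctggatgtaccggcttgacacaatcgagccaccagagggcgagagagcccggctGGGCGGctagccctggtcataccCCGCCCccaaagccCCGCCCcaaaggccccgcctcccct

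Igtp at chr11:58199306-58199555, Slfn8 at chr11:83020811-83021060 and Slfn9 at chr11:82991831-82992080 are interferon-response genes whose promoters hold the ISRE letters. They were chosen after their values were seen. Their sites contain 250, 158 and 250 of the printed bases.
Igtp: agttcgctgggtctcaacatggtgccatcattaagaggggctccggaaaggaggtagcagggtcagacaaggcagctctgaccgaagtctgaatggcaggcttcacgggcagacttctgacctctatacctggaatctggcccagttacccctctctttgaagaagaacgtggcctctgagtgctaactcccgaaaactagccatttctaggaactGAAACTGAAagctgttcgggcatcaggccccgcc
Slfn8: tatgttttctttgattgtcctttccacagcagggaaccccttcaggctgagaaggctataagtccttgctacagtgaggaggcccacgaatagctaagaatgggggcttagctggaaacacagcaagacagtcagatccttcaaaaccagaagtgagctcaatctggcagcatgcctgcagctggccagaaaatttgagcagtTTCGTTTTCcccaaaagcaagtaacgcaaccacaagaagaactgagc
Slfn9: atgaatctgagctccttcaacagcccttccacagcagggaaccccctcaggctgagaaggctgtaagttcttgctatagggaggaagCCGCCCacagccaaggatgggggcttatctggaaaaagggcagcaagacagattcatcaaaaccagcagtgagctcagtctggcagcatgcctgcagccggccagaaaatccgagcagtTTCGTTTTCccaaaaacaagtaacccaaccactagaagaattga

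The gene positions and the site positions of the deposited table are on different coordinates, and the offset of the rule was checked before its members were described. On chromosome 10, 52.5% of 419 gene starts had a site centre within 500 bp under the rule, against 7.64% when unshifted and 5.97% when shifted the opposite way. On chromosome 11 the shares of 734 starts were 61.2%, 8.58% and 6.40%. Within 1 kb the rule took 744 sites, no offset took 176 and the reversed offset 154. The single offset did not hold along the whole of either chromosome. Before 57.8 Mb on chromosome 10 it placed 3.17% of 126 starts, and before 34.3 Mb on chromosome 11 it placed 2.86% of 105 starts, while 73.7% of 293 and 70.9% of 629 starts were placed after those positions. The other 722 start sites lie after these boundaries and carry gene names here. The 22 before them are counted as members but given no gene. Their median value was 43.9 in vehicle and 46.7 in LPS, with a log2 fold SD of 0.61, and they are not shown to lie at gene starts. Sites at starts placed by a second offset in those stretches, described last, mostly fall among the other sites.

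**Figure D1:**
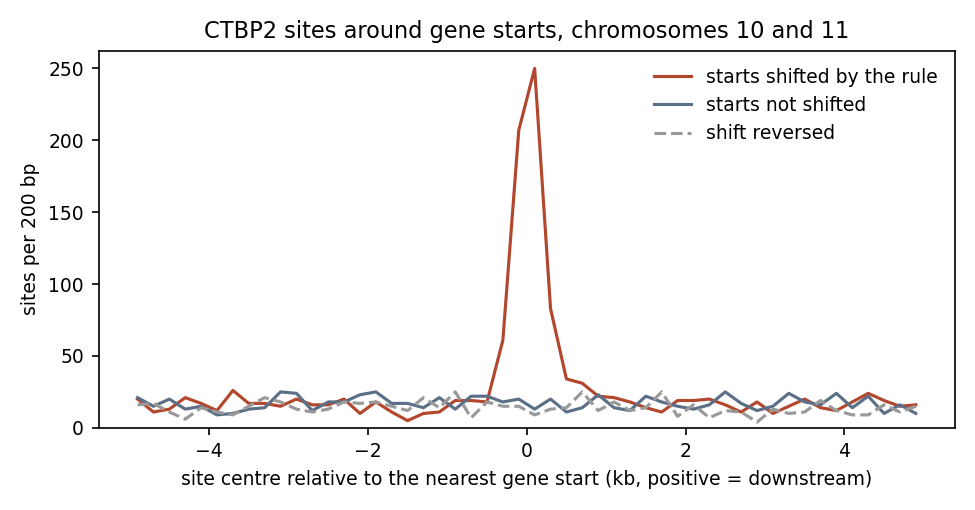
Number of CTBP2 sites per 200 bp (vertical axis) by distance of the site centre from the nearest gene start in kb, with starts shifted by the rule, not shifted, or shifted the opposite way. Under the rule 207 and 250 sites fall in the 200 bp before and after the start, against 20 and 13 with unshifted starts.

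CTBP2 sites piled up at the start itself. Of the 722 placed start sites, 494 (68.4%) had their centre within 250 bp of a start and 625 (86.6%) within 500 bp. The median distance was 139 bp. Centres lay downstream of the start at 404 sites (56.0%), and the median signed distance was 25.5 bp downstream. Every start site was 1001 bp wide, so values can be compared between genes without a length correction. A single start stood within 1 kb of 674 sites, and 48 sites were shared by 2 starts, as at Igtp and Irgm2 or at Tmbim4 and Irak3. The placed start sites covered 717 distinct nearest genes. Only 109 of the 722 (15.1%) carried the same gene name in the deposited table, so the gene at a start site often differs from the name printed there. Genes absent from the table could not be placed.

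Levels differed between libraries across the whole table before any comparison of groups. The deposited values are normalised per library, and their median over all sites ran from 35.5 to 37.3 in vehicle replicates 1 and 2, 73.0 in vehicle replicate 3, and from 37.1 to 61.0 in the LPS libraries. Vehicle replicate 3 therefore stands apart from its group. Results that turn on it are also given on median-centred values, in which every library has the same median log2 value. The labels and the table give no read depth behind a value, so no counting interval is given. In bulk chromatin, fewer cells with CTBP2 at a site and less CTBP2 per cell cannot be told apart.

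Gene start sites carried about 2-fold the CTBP2 level of other sites in every library. The median start site had a deposited value of 60.6, 62.4 and 161.0 in the vehicle libraries, in the order of their numbers, and 67.3, 94.1 and 121.9 in the LPS libraries. The median of the other sites was 32.0, 34.6 and 69.3 in vehicle and 35.4, 46.2 and 58.6 in LPS. The ratio of the medians, which does not depend on a library's scaling factor, was 2.01 ± 0.278 in vehicle and 2.01 ± 0.0930 in LPS (mean ± SD, n = 3 each). The difference between groups was smaller than the spread within them. Between 89.5% and 93.3% of start sites lay above the median of the other sites, depending on the library. With unshifted starts the ratio, averaged over the 6 libraries, was 1.00.

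**Figure D2:**
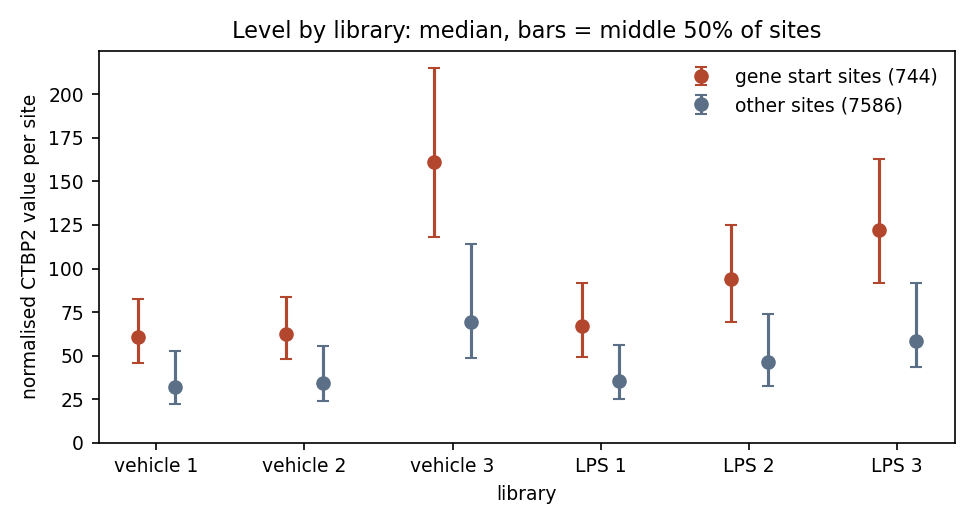
Normalised CTBP2 value per site (vertical axis) in each of the 6 libraries, as the median with bars over the middle 50% of sites, for the 744 gene start sites and the 7586 other sites. The start sites sit at about 2-fold the other sites in each library, and vehicle replicate 3 is the highest of all.

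The 6 start sites of highest mean value over the 6 libraries lay at genes of different roles. Polr2a encodes the largest subunit of RNA polymerase II, and its site at chr11:69648876-69649876 measured 179.3, 135.7 and 713.3 in vehicle and 148.4, 251.3 and 419.7 in LPS. The groups overlap, and vehicle replicate 3 is far above the other vehicle libraries. Pik3r5, a regulatory subunit of phosphoinositide 3-kinase gamma, measured 163.7, 176.4 and 383.8 in vehicle and 226.0, 359.6 and 449.0 in LPS. Aldh3a2, a fatty aldehyde dehydrogenase, measured 215.7, 229.3 and 425.0 in vehicle and 231.2, 287.7 and 293.1 in LPS. These groups overlap as well. With all 6 libraries, limma called none of the 3 on the deposited values. On median-centred values Pik3r5 was called higher (log2 fold 0.51, limma adjusted p = 0.00188), while Polr2a and Aldh3a2 were not called. Without vehicle replicate 3, limma on the deposited values called Pik3r5 (adjusted p = 0.00138) and Polr2a (adjusted p = 0.0492) higher. Aldh3a2 was not called there (adjusted p = 0.464). Irf1, Socs3 and the unnamed gene ENSMUSG00000085586 completed the 6. The order within them is not stable. Polr2a was first with a mean of 307.9, but without vehicle 3 it was not among the first 6 and Socs3 was first with 295.7. With every library scaled to the same median over all sites, the same 6 genes were the highest, led by Pik3r5 with Polr2a in place 4. Leaving out any 1 library kept 4 or 5 of the 6.

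On the deposited values, few start sites were called as changed between vehicle and LPS. This comparison addresses where CTBP2 occupancy moves after an inflammatory stimulus. By limma on log2(value + 1) with an adjusted p under 0.05 over all 62236 sites, 7 of the 744 start sites (0.941%) rose in LPS and 0 fell. Of all sites in the table, 1.89% were called higher and 0.0482% lower, and among the other sites of the 2 chromosomes 163 (2.15%) were higher and 3 lower. After the boundaries, where the offset places the starts, 6 of 722 start sites (0.831%) and 109 of 5498 other sites (1.98%) were higher. At an unadjusted p under 0.05, 2 start sites were lower. By the authors' deposited table, at an adjusted p under 0.05, 10 start sites were higher and 0 lower, against 4.01% and 0.37% of all sites. On median-centred values, limma called 71 start sites higher (9.54%) and 32 lower (4.30%), against 16.1% and 13.4% of the whole table and 17.3% and 12.9% of the other sites of these chromosomes. The number called higher on the deposited values depended on single libraries: it was 122 without vehicle replicate 3, 2 without vehicle replicate 1, 2 without vehicle replicate 2, 5 without LPS replicate 1, 1 without LPS replicate 2 and 1 without LPS replicate 3. On median-centred values it was 126 without vehicle replicate 3 and 49 to 80 without any other library. The number lower on these values was 18 without vehicle replicate 3, 19 without LPS replicate 2 and 29 to 33 otherwise. Shares over all sites are not given for these fits, so the counts show only how far calls depend on single libraries.

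The folds of start sites were also narrower. The log2 fold, LPS over vehicle, had a median of 0.09 over start sites and 0.06 over the other sites, against 0.04 over the whole table. The median of start sites turns on single libraries: it was 0.54 without vehicle 3, 0.31 without LPS 1, -0.15 without vehicle 1, -0.14 without vehicle 2 and -0.10 without LPS 3. The start sites' median minus that of the other sites was 0.03, and it ran from -0.05 without vehicle 2 to 0.12 without vehicle 3, so no direction is read from it. The fold's SD over sites was 0.36 for start sites and 0.58 for the others, and the middle 50% ran from -0.06 to 0.26 against -0.24 to 0.43. On median-centred values, 2.42% of start sites and 8.32% of other sites differed by more than 2-fold. These are descriptions over sites that share the same libraries, with no test of the difference between the sets.

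The narrower spread was also present among sites of like level. All sites of the 2 chromosomes were put into 5 equal bins by mean level, and the top bin held 53.2% of the start sites and 16.7% of the others. In that bin, 2 of 396 start sites (0.505%) and 23 of 1270 other sites (1.81%) were called higher on the deposited values. The SD of the log2 fold there was 0.32 for start sites and 0.52 for the others. In the bin below, 3 of 251 start sites (1.20%) and 30 of 1415 other sites (2.12%) were called, with SDs of 0.37 and 0.57. The lowest bin held only 16 start sites and the next 22, too few to read a trend.

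**Figure D3:**
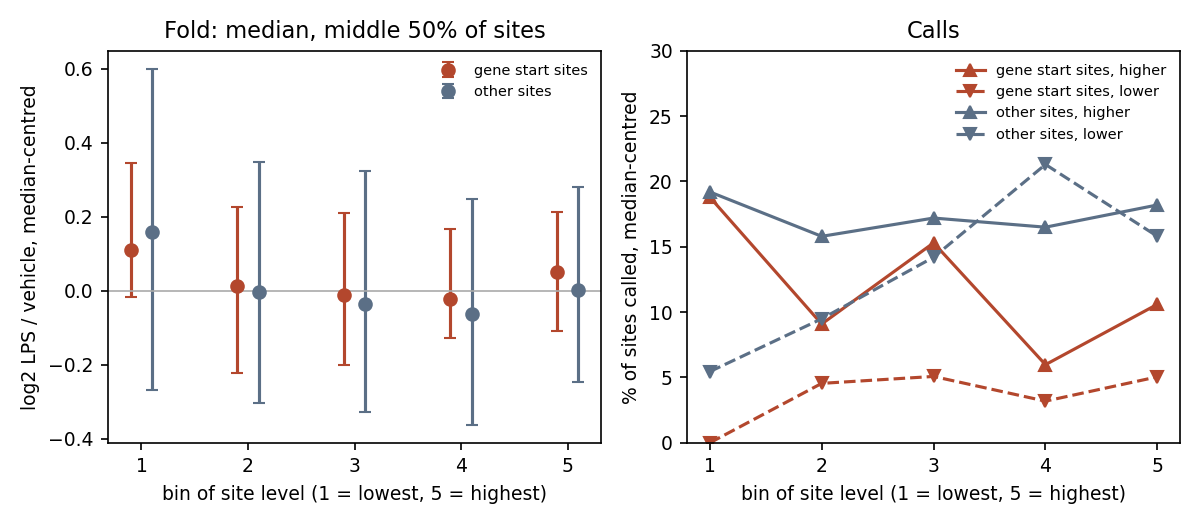
Gene start sites and other sites in 5 equal bins of site level (horizontal axis, 1 = lowest). Left, log2 LPS over vehicle on median-centred values, as the median with bars over the middle 50% of sites; right, percent of sites called higher or lower by limma. In the top bin 10.6% of start sites and 18.2% of other sites were called higher, and the lowest bin holds only 16 start sites.

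Of the 6 named start sites that rose, 5 had their centre more than 500 bp from the start in the deposited table. Adora2a encodes an adenosine receptor, which dampens macrophage activation. Its site at chr10:75153187-75154187, centred 977 bp inside the gene, measured 14.7, 18.3 and 39.3 in vehicle and 96.6, 160.7 and 215.7 in LPS. All LPS libraries lie above all vehicle libraries. The log2 fold was 2.71 ± 0.46 (SE), with a limma adjusted p of 5.16e-06, and it stayed called without each library in turn. Socs3, a feedback inhibitor of cytokine signalling, had its site at chr11:117859473-117860473, 900 bp inside the gene. It measured 68.4, 78.7 and 168.5 in vehicle and 335.6, 442.2 and 553.4 in LPS, again without overlap. The log2 fold was 2.15 ± 0.43 (limma adjusted p = 0.000181), which was no longer called without LPS replicate 2 or LPS replicate 3 (highest adjusted p 0.0771). The RefSeq start of Socs3 lies 681 bp from that of the table, and the 250 bases printed above are wholly inside this site.

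Nos2 encodes inducible nitric oxide synthase, a hallmark enzyme of LPS-stimulated macrophages. Its site at chr11:78811050-78812050 covered the start, with its centre 63 bp upstream. It measured 28.6, 23.7 and 67.4 in vehicle and 102.6, 141.2 and 158.3 in LPS, so the groups do not overlap. The log2 fold was 1.85 ± 0.47 (limma adjusted p = 0.00817). Of the 6 named start sites that rose, Nos2 was the 1 that covered its start in the table.

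Tnip1, an inhibitor of NF-kB signalling that binds ubiquitin, had its site at chr11:54854146-54855146, 903 bp upstream of the start. It measured 24.2, 32.6 and 89.9 in vehicle and 118.2, 141.2 and 171.2 in LPS, with no overlap. The log2 fold was 1.75 ± 0.47 (limma adjusted p = 0.0163). Efna2, an ephrin ligand of cell-surface Eph receptors, had its site at chr10:80015375-80016375, 560 bp inside the gene. Its values were 16.5, 21.7 and 43.1 in vehicle and 76.8, 117.2 and 124.3 in LPS, which also do not overlap (log2 fold 2.01 ± 0.46, limma adjusted p = 0.00204). Rsad1, at chr11:94438966-94439966 and 615 bp inside the gene, measured 58.0, 56.3 and 125.4 in vehicle and 157.9, 241.5 and 280.2 in LPS. All its LPS values exceed its vehicle values, and the log2 fold was 1.55 ± 0.46 (limma adjusted p = 0.0382). The call at Nos2 and Efna2 was lost without any 1 of vehicle 1, vehicle 2, LPS 2 or LPS 3, with highest adjusted p of 0.419 and 0.207. At Tnip1 and Rsad1 it was lost without any library but vehicle 3, with highest adjusted p of 0.456 and 0.695. The 7th start site that rose lies before the boundary on chromosome 10 and carries no gene name.

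**Figure D4:**
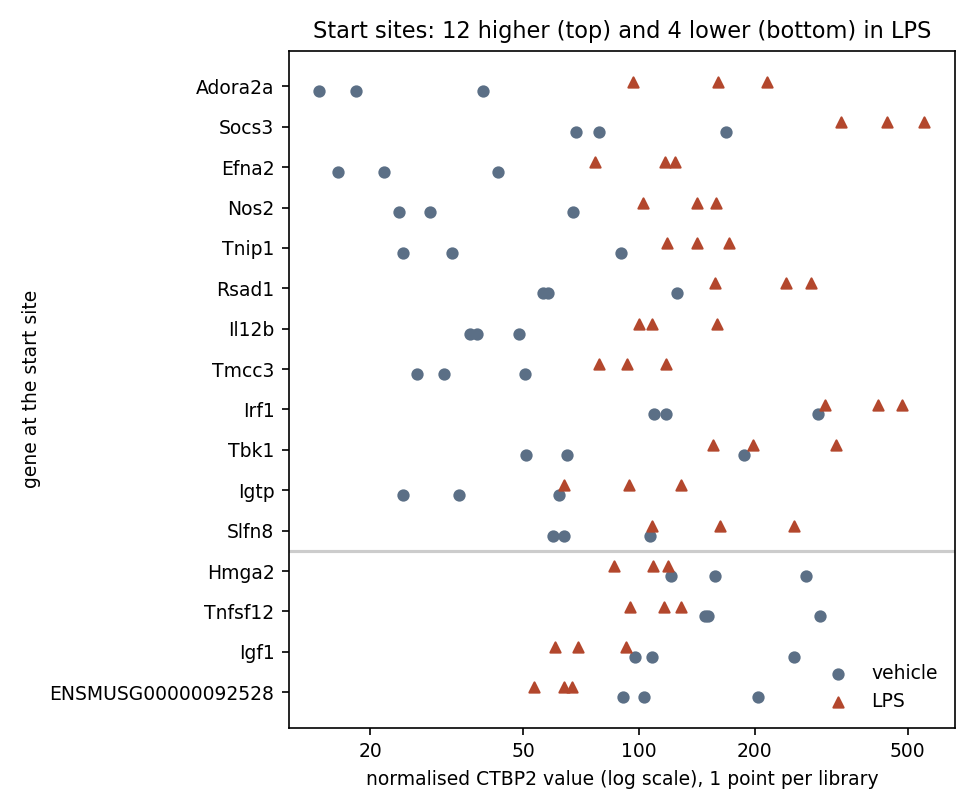
Normalised CTBP2 value (horizontal log axis) in each of the 6 libraries, 1 point per library, for the 12 start sites with the smallest p among those higher in LPS (above the line) and the 4 with the smallest p among those lower (below it). The 6 uppermost genes, from Adora2a to Rsad1, passed the limma test on deposited values, and their LPS points all lie above their vehicle points.

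Behind these came start sites that did not pass limma on the deposited values but did on median-centred values. In the authors' deposited table, Il12b (adjusted p = 0.00205) and Tmcc3 (adjusted p = 0.00823) were called as well. Il12b, the shared subunit of interleukins 12 and 23, measured 36.4, 38.0 and 48.7 in vehicle and 100.1, 108.3 and 159.4 in LPS at a site 998 bp upstream. All LPS libraries were higher, and the log2 fold of 1.54 ± 0.47 had a limma adjusted p of 0.0517. Irf1, a transcription factor of the interferon response, measured 109.1, 117.3 and 292.1 in vehicle and 304.5, 418.3 and 483.0 in LPS at a site 90 bp inside the gene. These groups do not overlap either, and the log2 fold was 1.34 ± 0.41 (limma adjusted p = 0.0587). Tbk1, a kinase that activates interferon regulatory factors, measured 65.0, 50.9 and 187.2 in vehicle and 156.1, 198.0 and 324.8 in LPS, with vehicle 3 above LPS 1. Its log2 fold was 1.33 ± 0.45 (limma adjusted p = 0.113). Tmcc3 had a log2 fold of 1.43, and the start shared by the immunity-related GTPases Igtp and Irgm2 had 1.28. Slfn8, of the interferon-inducible Schlafen family, had 1.14.

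The lower end held no start site that passed on the deposited values. Igf1, insulin-like growth factor 1, which macrophages secrete in tissue repair, measured 108.3, 97.7 and 252.8 in vehicle and 60.4, 69.3 and 92.6 in LPS at chr10:87694376-87695376. Every LPS library was below every vehicle library, with a log2 fold of -0.92 ± 0.47 (limma adjusted p = 0.499). Without vehicle 3 the fold was -0.49. Hmga2, an architectural chromatin protein, measured 157.6, 121.4 and 271.5 in vehicle and 86.3, 119.0 and 109.0 in LPS, again without overlap. Its log2 fold was -0.73. ENSMUSG00000092528 (-1.01), Tnfsf12, the cytokine TWEAK (-0.74), and the monocarboxylate transporter Slc16a7 (-0.54) also had LPS values wholly below vehicle. Lower values with overlapping groups were found at Lrp1, a scavenger and endocytic receptor (-0.57), Srebf1, a regulator of lipid synthesis (-0.61), the lysozyme gene Lyz1 (-0.57), Bcas3 (-0.59), Cfap410 (-0.59), Engase (-0.58) and the transporter Abca9 (-0.68). All of these folds were nearer 0 without vehicle 3. They were then -0.66 at ENSMUSG00000092528, -0.41 at both Tnfsf12 and Hmga2, -0.25 at Slc16a7, -0.24 at Abca9, -0.20 at Lyz1, -0.16 at Engase, -0.13 at Lrp1, -0.09 at both Bcas3 and Cfap410, and -0.05 at Srebf1. Of these 12 sites, 11 passed as lower on median-centred values, and Abca9 did not (limma adjusted p = 0.0645).

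The gene groups were read by how many of their start sites passed. Of 9 genes with a start site on the list of inflammatory mediators, 2 rose on the deposited values: Nos2 and Adora2a, which encodes a receptor. On median-centred values, 6 of the 9 passed as higher and 0 as lower. Their median log2 fold on the deposited values was 0.77. The chemokine Cxcl16 had a log2 fold of 0.99 and the growth factor Csf2 0.77, while the chemokine genes Ccl2 (-0.08), Ccl6 (-0.14) and Ccl7 (-0.01) were near 0. Of 16 interferon-response genes, at 15 sites, 0 passed on the deposited values and 11 sites passed as higher on median-centred values, with 0 lower. The median log2 fold was 0.72. Members included Irf1, Irgm1 (1.04), Slfn4 (1.02), Slfn9 (1.12), Slfn3 (0.79), Stat2 (0.72) and Lgals9 (0.55). Ifi47 (0.02), Stat5b (0.14) and Stat3 (0.37) did not pass on either scale. Of 7 NF-kB and Toll-like receptor genes, Tnip1 rose on the deposited values, and Tnip1, Tbk1 and Irak3, an inhibitor of Toll-like receptor signalling that shares its site with Tmbim4 (0.81), passed on median-centred values. The kinases Map2k3 (0.14), Map3k3 (0.00) and Mapk9 (-0.13) did not.

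Of 4 immediate early and feedback genes, Socs3 alone passed, while Socs7 (0.13), Btg1 (0.14) and Nuak1 (-0.17) did not. Among 8 macrophage identity and lysosome genes, 0 passed on the deposited values and 2 passed as lower on median-centred values: Lyz1 and the inhibitory receptor Cd300a (-0.44, and -0.03 without vehicle 3). Their median log2 fold was -0.14. Of 14 co-repressor and chromatin genes at 15 sites, 0 passed on the deposited values and Cbx8, a Polycomb subunit (-0.37, and -0.01 without vehicle 3), was lower on median-centred values. The Polycomb genes Suz12 (0.02) and Ezh1 (0.03) and the deacetylase gene Hdac5 (0.08) were near 0. Of 19 ribosome, proteasome and other housekeeping genes, 0 passed on either scale, with a median of 0.12. The lists were drawn up with results on these data known, so their counts are descriptions to be read beside the whole-table shares given above. No gene on the neutrophil, lymphocyte or erythroid and stromal marker lists was among the genes named on these chromosomes, so those cell types could not be checked here.

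The share of sites called was not even across bands of distance from the start. Among the 494 sites within 0.25 kb of a start, 1 was called higher on the deposited values (0.202%), and among the 131 at 0.25 to 0.5 kb it was 0. Among the 97 at 0.5 to 1 kb it was 5 (5.15%). At 1 to 2 kb it was 2 of 123 (1.63%) and at 2 to 5 kb 5 of 434 (1.15%). The share was 2.0% at 5 to 20 kb, 2.11% at 20 to 100 kb and 2.05% beyond, against 1.89% of the whole table. On median-centred values the share called higher was 7.09%, 9.92% and 19.6% in the first 3 bands. It was then 22.0% at 1 to 2 kb and 15.9% at 2 to 5 kb. In the bands beyond 5 kb it was 15.0%, 17.1% and 17.5%, against 16.1% of the whole table. The median level over the 6 libraries was 96.3, 104.1 and 97.9 in the first 3 bands, 67.7 at 1 to 2 kb and 42.2 at 2 to 5 kb. The SD of the log2 fold was 0.29, 0.31 and 0.56 in the first 3 bands and 0.52 at 1 to 2 kb. Just inside the 1 kb limit, the 15 sites at 0.9 to 1.0 kb had median values of 73.7 in vehicle and 88.4 in LPS, and just outside it the 17 sites at 1.0 to 1.1 kb had 74.4 and 76.0. The sites at 0.5 to 1 kb were thus near those at 1 to 2 kb in the spread of folds and in median-centred calls, and near those on the start in level. The bands were not tested against each other. Distances are from the starts of the deposited table. Socs3, called at 0.5 to 1 kb, has a RefSeq start 681 bp from its table start, with all 250 printed bases inside the site.

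**Figure D5:**
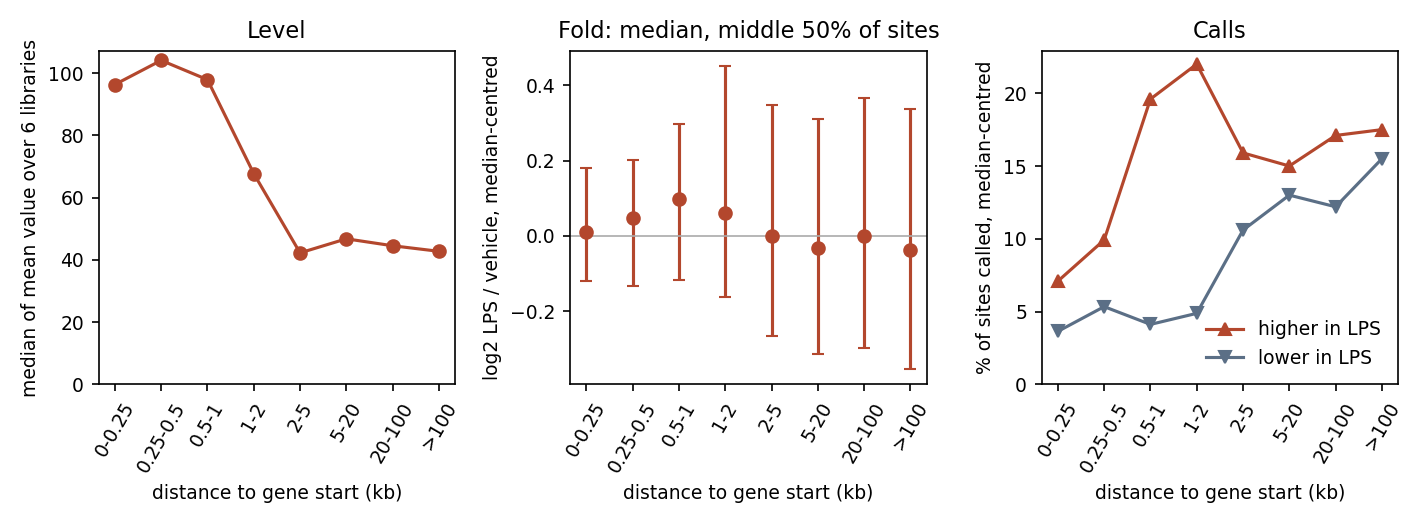
CTBP2 sites in bands of distance from the nearest placed gene start (horizontal axis, kb). Left, median of the mean value over 6 libraries; middle, log2 LPS over vehicle on median-centred values, as the median with bars over the middle 50% of sites; right, percent of sites called by limma. Level falls from 97.9 at 0.5 to 1 kb to 42.2 at 2 to 5 kb. The share called higher is 7.09% nearest the start and 22.0% at 1 to 2 kb. In the bands beyond 5 kb that share is 15.0%, 17.1% and 17.5%.

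Sites that rose away from starts were set beside the start site of the gene with the nearest placed start, at any distance. Genes absent from the table could not be nearest, so these sites are not shown to belong to the genes named. In the placed stretches, 109 other sites were called higher, and they lay nearest to 84 genes, of which 65 had a start site. The start site was itself called higher at 4 of the 65 (6.15%), against 6 of all 722 placed start sites (0.831%), with no test of the difference. The median log2 fold of these start sites was 0.14, and the median of the largest fold among their called other sites was 1.89. The called other sites were chosen by their call, so the second median is set by the choice. For Smarce1, a subunit of the BAF chromatin remodeller, the largest fold among the called sites nearest to it was 2.96, and its start site had 0.23. Csf2 had 2.65 and 0.77, the calcium pump gene Atp2b1 2.42 and 0.07, and the antiproliferative gene Btg1 2.14 and 0.14. Within 50 kb of the start sites that rose, Adora2a had 14 other sites, of which 3 were called higher, with a largest log2 fold of 3.60 at 12.5 kb. Socs3 had 2 called of 14, Nos2 2 of 12 and Tnip1 1 of 17. Efna2 had 0 called of 14 and Rsad1 0 of 5, with largest log2 folds of 0.60 and 0.48.

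The promoters of genes with a start site were richer in CpG and GC boxes than promoters in general. A promoter here ran from 250 bases before the start to 50 after it, longer than the stretches printed above. Of 922 placed genes, 766 matched the RefSeq table by symbol and 682 of these had a start within 500 bp of the table's, 590 with a start site and 92 without. The GC box was present in 68.8% of the 590, in 50.0% of the 92 and in 35.7% of all 32851 promoters. The median GC content was 62.5%, 57.7% and 52.7%, and the median observed over expected CpG ratio 0.83, 0.69 and 0.38. The TATA box was in 5.25%, 8.70% and 13.6%, and the CCAAT box in 40.0%, 48.9% and 37.4%. The NF-kB letters were in 5.08%, 13.0% and 5.82%, and the AP-1 letters in 4.58%, 4.35% and 7.81%. The PU.1 letters were in 3.39%, 6.52% and 3.2%, the ISRE letters in 6.78%, 8.7% and 8.56%, and the ZEB E-box in 15.4%, 15.2% and 20.2%. Among the 46 promoters whose start site passed as higher on median-centred values, 10 (21.7%) held the ISRE letters, as in Igtp, Slfn8 and Slfn9 above, against 29 of 521 (5.57%) whose site was not called and 8.56% of all promoters. AP-1 letters were in 6 of the 46 (13.0%) and in 21 of the 521 (4.03%), and the TATA box in 13.0% and 4.61%. The NF-kB letters were in 4.35% of the 46 and 5.18% of the 521, the PU.1 letters in 0% and 3.45%, the ZEB E-box in 10.9% and 16.1%, the GC box in 63.0% and 69.1%, and the CCAAT box in 43.5% and 39.2%. Among the 23 promoters whose site passed as lower, 1 held the ISRE letters. Other forms of these motifs, including NF-kB, were not counted. These are shares of letters, without a test. Some of the 10 genes share a family, Slfn8 with Slfn9 (Schlafen) and Igtp with Irgm1 (immunity-related GTPases). How alike the promoters within such a family are was not measured.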

How the data were processed

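CTBP2 ChIP-seq values of 3 vehicle and 3 LPS libraries came from 1 deposited table. The deposited signal columns give each site 1 normalised value in each library; the sources used here do not give what set the normalisation. The authors' deposited log2 fold and p-value columns were used only where named. Per the submitters' processing notes, the tools included DiffBind 3.16, MACS3 3.0.0a5, BWA 0.7.17, SAMtools 1.9 and Picard 3.2.0. These notes name mm39, GRCm39 and mm10 as builds. The sources used here do not give whether libraries were pooled for peak calling. Site coordinates are the table's own, read as GRCm39, which the table does not state. Promoter coordinates are GRCm38.p6, so the 2 cannot be compared directly.

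The 6 libraries were compared on log2(value + 1) over all 62236 sites in R 4.3.3, using limma 3.58.1 with its trend and robust settings, no covariate, no filter and Benjamini-Hochberg adjustment over all sites; a site was called at an adjusted p under 0.05. Folds on this scale understate changes at low values. The fit was tested on simulated data with equal or median-centred library levels. Simulated libraries with the unequal levels of the deposited values, the setting of the main test, had no pass mark. Python 3.11.15 with pandas 2.3.3 and numpy 2.4.6 made the other values. Alternatives were other scalings, pseudocounts, filters, thresholds, windows, offsets, a replicate block and leaving out each library. The second offsets, the boundaries, the leave-one-out on median-centred values and the repeated level ranking were added after seeing the data. The members and gene lists were chosen with earlier results of these data known. Named sites were the 12 higher and 12 lower start sites with the smallest p, the 6 of highest level, and in each list the called genes or otherwise up to 4 with the smallest p; list genes outside this rule were chosen after their values were seen.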

Additional observations from a re-analysis of the deposited data

How the results depend on the processing

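The 7 start sites called higher became 71 on median-centred and 74 on quantile-normalised values, 4 at an adjusted p under 0.01, 1 within 500 bp of a start and 11 within 2 kb. The 0 called lower became 32 on median-centred and 39 on quantile-normalised values. Leaving out each library gave 1 to 122 called higher and 0 lower on the deposited values. On median-centred values it gave 49 to 126 higher and 18 to 33 lower. Shares over all sites are not given for the leave-one-out fits or for quantile-normalised values. The level ratio was 1.00 with unshifted starts and 1.94 to 2.05 when a library was left out. Pseudocounts of 0.5 and 5 and a mean value of 20 or more left all 46 named sites on the same side of the threshold, and on median-centred values 24 of the 46 became called and none changed sign. Single libraries turned the sign of 8 named sites that passed on neither scale. Their log2 folds ran from -0.514 to 0.679 at Polr2a, from -0.213 to 0.274 at Aldh3a2, from -0.405 to 0.198 at Nuak1, from -0.485 to 0.0792 at Itgb2, from -0.450 to 0.144 at Cd300lf and from -0.734 to 0.205 at Uqcr11, each highest without vehicle 3. They ran from -0.149 to 0.598 at Btg1 and from -0.127 to 0.633 at Socs7, again highest without vehicle 3. The median fold of start sites ran from -0.15 to 0.54 when a library was left out. The cause was not tested.

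Whether the replicate numbers pair the libraries is not settled. Deviations of same-numbered libraries correlated at 0.11, 0.04 and 0.21. Those of differently numbered libraries correlated at -0.20 (vehicle 3 with LPS 1) to 0.15 (vehicle 2 with LPS 1). With the replicate block, 30 start sites were called higher and 2 lower on the deposited values, and 104 and 50 on median-centred values. Shares over all sites are not given for the blocked fits, so these counts are not read as particular to start sites. The planned edgeR fits were not run, because whole reads could not be recovered from all columns. Read depth is unknown, and 3 libraries per group with unequal scaling limit what the deposited values can show.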

Other observations

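A second offset was measured for the stretches nearest the chromosome starts, where the offset of the rule placed few genes. An offset of -124250 bp before 57.8 Mb on chromosome 10 placed 66.7% of 126 gene starts within 500 bp of a site, and -50250 bp before 34.3 Mb on chromosome 11 placed 70.5% of 105. With both offsets 902 sites lay within 1 kb of a start, of which 6 (0.665%) were called higher by limma on the deposited values. Of all sites in the table, 1.89% were called higher and 0.0482% lower on those values, and 16.1% and 13.4% on median-centred values. The 180 start sites at the second offsets held 0 calls on the deposited values, and 24 higher (13.3%) and 5 lower (2.78%) on median-centred values. Their median value was 98.2 in vehicle and 96.4 in LPS, and the SD of their log2 fold was 0.32. The offsets were chosen on these same sites, so the placed shares are descriptions.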
